A study of Mus musculus with 8 samples.

Results

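The 8 endoplasmic reticulum (ER) chaperone genes Hspa5, Hyou1, Hsp90b1, Sil1, Sdf2l1, Sdf2, Cnpy2 and Cnpy3 were examined in RNA sequencing of CD4-CD8- double-negative stage 3 (DN3) thymocytes, the stage at which developing T cells pass β-selection. They were chosen by symbol as BiP, the ER Hsp90 protein GRP94 and the factors that exchange their nucleotide or work beside them, and all 8 were found among the 16538 genes of the table. Of these, 4 were called higher in Sel1l CKO libraries, that is at an adjusted p under 0.05 over the 6512 genes tested, of which 4.27% were called higher. Sdf2l1 rose 5.73-fold, Hyou1 4.18-fold, Hspa5 3.50-fold and Hsp90b1 2.56-fold in mean RPKM, whereas Sdf2, Cnpy2 and Cnpy3 did not pass the test and Sil1 was below the level required for it.

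The comparison was between control mice, which carried the Sel1l-f/f alleles alone, and Sel1l CKO mice, which carried the same alleles with the hCD2cre transgene (4 libraries of each genotype, all C57BL/6 and 6 weeks old). Both groups therefore shared the floxed alleles, and the controls are labelled without a Cre transgene. In Sel1l CKO mice the human CD2 promoter drives iCre from early thymic progenitors onward, so deletion begins before DN3 and extends to the lymphocytes that follow. SEL1L is the adaptor of the HRD1 ubiquitin ligase in ER-associated degradation, the pathway that returns misfolded ER proteins to the cytosol for destruction, and the study compared the genotypes to learn how DN3 thymocytes change without it.

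BiP, encoded by Hspa5, is the Hsp70 of the ER lumen. It binds unfolded chains in cycles of ATP hydrolysis that J-domain proteins start and exchange factors such as HYOU1 (GRP170) and SIL1 end, and it also holds the unfolded protein response (UPR) sensors IRE1, PERK and ATF6 inactive while folding capacity is sufficient. GRP94, encoded by Hsp90b1, takes over later folding steps of selected clients, among them integrins and Toll-like receptors. SDF2 and its paralog SDF2L1 form complexes with the J-domain protein DNAJB11 and BiP, CNPY3 assists GRP94 with Toll-like receptors, and CNPY2 is a related ER-resident protein. ATF6 and XBP1 raise transcription of ER chaperone genes through ER stress response elements in their promoters.

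Values are RPKM as deposited, in which reads on a gene are scaled to its length and to the library, and where 4 values are listed they follow replicates 1 to 4. Errors are SD over libraries, or the standard error (SE) of a difference. The reads counted on genes ranged from 35191352 to 47778590 in control and from 32900253 to 50401359 in Sel1l CKO libraries. Sel1l itself was lower in every Sel1l CKO library (0.876 to 1.32 RPKM) than in every control library (1.57 to 1.83 RPKM), with a mean at 65.1% of control (adjusted p = 0.0327 in limma, a moderated linear model fitted across genes). That call was lost in 6 of 8 fits without 1 library, all but those without Sel1l CKO replicate 3 or 4 (adjusted p 0.0199 to 0.0981). A value covers all reads assigned to a gene, so it cannot tell a transcript lacking only the deleted part from an intact one. Where the remaining Sel1l reads came from was not tested. A principal component analysis set Sel1l CKO replicates 3 and 4 apart on the second component (22.1% of variance), and since the labels name no batch, changes are also given among replicates 1 and 2 and among replicates 3 and 4. The labels number the replicates without saying that each came from a separate mouse, so p-values measure the spread between these libraries. The DN3 markers Ptcra, Rag1, Rag2, Il2ra, Notch1, Notch3, Dtx1, Cd3e and Thy1 were all present, summed to 499 to 541 RPKM in control against 455 to 480 in Sel1l CKO, ranges that did not overlap, and none passed the test singly. Summed levels of the double-positive thymocyte, B cell, plasma cell, myeloid, dendritic cell, erythroid and γδ T or NK cell lists overlapped between genotypes. Only Cd8a, Cd79b, Mzb1, Lyz2, Cd68, H2-Ab1, Sox13 and Nkg7 of these lists were high enough to be tested, and none of them passed. No erythroid gene was tested, and Ighg1, Siglech, Trdc and Ncr1 were not in the table. The B cell sums barely overlapped (8.220 to 10.2 RPKM in control, 5.31 to 8.224 in Sel1l CKO), and the myeloid sums were 3.50 to 6.25 against 1.93 to 3.97. The γδ T or NK cell range also began and ended lower in Sel1l CKO. The double-positive, plasma cell, dendritic cell and erythroid ranges began and ended higher. The plasma cell sum (8.29 to 12.5 RPKM in control, 10.03 to 29.4 in Sel1l CKO) came almost wholly from Mzb1, with Jchain, Sdc1 and Prdm1 at or near 0. The thymic epithelial sum was 3.10 to 4.88 RPKM in control against 1.95 to 2.27 in Sel1l CKO, with Krt5 and Foxn1 at or near 0. Epcam, the only one of its 5 genes high enough to be tested, was called lower (log2 fold change -0.95, limma adjusted p = 0.00273). The part of these differences in the results was not tested.

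Upstream sequence is shown for 4 of the genes because it lets a member that rose be set beside a paralog that did not. The 250 bases before each RefSeq start (GRCm38.p6) are printed 5′ to 3′ on the strand of the gene, in lower case. Capitals mark both blocks of each ER stress response element (ERSE, CCAAT and CCACG with 9 bases between, which the ATF6 and NF-Y factors read) and each TGACGTG, an XBP1 and ATF6 element. CCACG outside an ERSE is left in lower case. Hspa5 is at chr2:34771840-34772089 on the plus strand, Hsp90b1 at chr10:86705445-86705694 on the minus strand, Sdf2l1 at chr16:17132384-17132633 on the minus strand and Sdf2 at chr11:78245496-78245745 on the plus strand. For Hspa5 and Hsp90b1 the gene span of GENCODE begins upstream of the RefSeq start, inside the window.
Hspa5: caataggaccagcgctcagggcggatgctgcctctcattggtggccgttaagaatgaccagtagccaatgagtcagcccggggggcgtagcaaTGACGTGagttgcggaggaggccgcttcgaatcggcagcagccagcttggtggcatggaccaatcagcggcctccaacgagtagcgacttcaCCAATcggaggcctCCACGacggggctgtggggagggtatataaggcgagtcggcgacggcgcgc
Hsp90b1: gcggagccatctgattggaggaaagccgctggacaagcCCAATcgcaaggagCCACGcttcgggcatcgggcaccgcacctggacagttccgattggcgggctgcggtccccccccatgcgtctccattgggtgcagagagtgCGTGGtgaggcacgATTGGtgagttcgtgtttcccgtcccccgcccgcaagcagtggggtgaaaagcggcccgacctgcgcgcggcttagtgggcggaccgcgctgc
Sdf2l1: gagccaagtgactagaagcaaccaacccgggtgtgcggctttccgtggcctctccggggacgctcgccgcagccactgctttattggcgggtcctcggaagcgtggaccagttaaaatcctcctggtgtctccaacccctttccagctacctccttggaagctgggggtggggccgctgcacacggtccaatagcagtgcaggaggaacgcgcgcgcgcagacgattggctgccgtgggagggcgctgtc
Sdf2: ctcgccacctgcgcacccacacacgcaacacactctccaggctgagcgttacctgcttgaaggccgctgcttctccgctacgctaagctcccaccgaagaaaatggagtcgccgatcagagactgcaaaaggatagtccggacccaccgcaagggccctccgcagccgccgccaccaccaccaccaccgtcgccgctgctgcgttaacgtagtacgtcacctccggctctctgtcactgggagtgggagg

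Each ERSE also counts once as its block CCACG. The search covered both strands of the 300 bases from 250 before to 50 after the start. It counted exact matches only, so sites that differ by a base from these elements are not included. Of the 8 genes, 6 had a promoter in the RefSeq table. An ERSE was found in 39 (0.119%) of all 32851 promoters. Hspa5 held 1 ERSE, from position -65 to -47 on its own strand, and Hsp90b1 held 2, from -212 to -194 on its own strand and from -107 to -89 on the other strand, where the capitals read in reverse complement. The Sdf2l1 promoter held no ERSE. It held the block CCACG 3 times, a sequence present in 32.8% of promoters. Neither of the 2 promoters listed for Sdf2, the first of which is shown, held any. The block also stood 2 times in the Cnpy3 promoter and 1 time in that of Cnpy2, and neither gene was called higher. TGACGTG stood once in the Hspa5 promoter, from -157 to -151, and in 2.01% of all promoters. The ATF4 and CHOP composite element TGATGCAA, found in 0.895% of promoters, stood once in that of Cnpy2, from -121 to -114. The variant ERSE-II (ATTGG and CCACG with 1 base between, 0.0365% of promoters) was in no member's window. These matches describe letters in a window only, and binding at them was not measured.

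BiP transcript was at 100.3, 83.2, 133 and 113 RPKM in the control libraries and at 365, 311, 422 and 406 RPKM in the Sel1l CKO libraries. Sel1l CKO replicate 2 was the lowest of its group, as control replicate 2 was of its own, and the groups did not overlap. The mean went from 107 ± 20.9 to 376 ± 49.5 RPKM (SD, n = 4). In limma's moderated test on log2(RPKM + 0.1), fitted to the 6512 genes that averaged 1 RPKM or more, Hspa5 (ENSMUSG00000026864.13, GRCm38 chromosome 2, 34771970 to 34777547, plus strand) rose by 1.82 on the log2 scale (SE 0.15, 95% interval 1.49 to 2.15, adjusted p = 1.05e-04). The change was 1.88 among replicates 1 and 2 and 1.75 among replicates 3 and 4. In these sorted cells, a change in the number of cells that express a gene and a change in its RNA per cell cannot be told apart. Read counts on Hspa5 were high, from 22186 to 26069 in control and from 74428 to 87455 in Sel1l CKO libraries.

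Of the nucleotide exchange factors of BiP, Hyou1 passed the test, and Sil1, too low for limma, did not pass the permutation test used in its place. Hyou1, which encodes the large Hsp70 relative GRP170, was at 16.3, 15.95, 16.3 and 17.0 RPKM in the control libraries. The Sel1l CKO libraries were at 62.9, 56.7, 77.4 and 76.9 RPKM. The control libraries were nearly level, and within Sel1l CKO replicates 3 and 4 were higher than 1 and 2. Hyou1 (ENSMUSG00000032115.14, chromosome 9, 44379490 to 44392369, plus strand) rose from 16.4 ± 0.421 to 68.5 ± 10.3 RPKM (SD, n = 4), a log2 change of 2.05 (SE 0.10, limma adjusted p = 5.58e-06). The change was 1.88 among replicates 1 and 2 and 2.21 among replicates 3 and 4. No other annotated gene overlaps it.

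Sil1, the smaller exchange factor, was at 0.0816, 0.110, 0.117 and 0.0962 RPKM in the control libraries and 0.143, 0.116, 0.113 and 0.121 RPKM in the Sel1l CKO libraries. The groups overlapped, and the highest value, in Sel1l CKO replicate 1, lay above the rest. Sil1 (ENSMUSG00000024357.10, chromosome 18, 35266396 to 35499780, minus strand) has long introns, and RPKM here uses the whole gene span, which puts it below the mean of 1 RPKM required for limma although 771 to 1364 reads were counted on it in each library. On the opposite strand, 3 antisense transcripts and a processed pseudogene share 580 to 6061 bases each with it, and none of them is in the table. The difference of 0.15 on the log2(RPKM + 0.1) scale, which was 0.27 with a pseudocount of 0.01 and 0.03 with 1, gave p = 0.0857 in an exact two-sided permutation test over 70 assignments of the libraries, where the smallest possible p is 0.0286. On whole reads recovered from the RPKM values, limma voom, which models counts, gave a log2 change of 0.29 (SE 0.13, 95% interval 0.01 to 0.58, adjusted p = 0.226). Without control replicate 3 the groups no longer overlapped (0.19, exact permutation p = 0.0286). The log2 ratio of Hyou1 to Sil1 within a library went from 6.36 ± 0.129 to 8.25 ± 0.260 (SD, n = 4). The difference was 1.89 (SE 0.15, exact permutation p = 0.0286, adjusted p = 0.0357 over 10 gene pairs), more than the spread between libraries. It was 1.78 with a pseudocount of 0.01 and 1.96 with 1. Sil1 lies near the pseudocount of 0.1, so the pseudocount and the gene spans both enter the level and spread of this ratio.

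**Figure D1:**
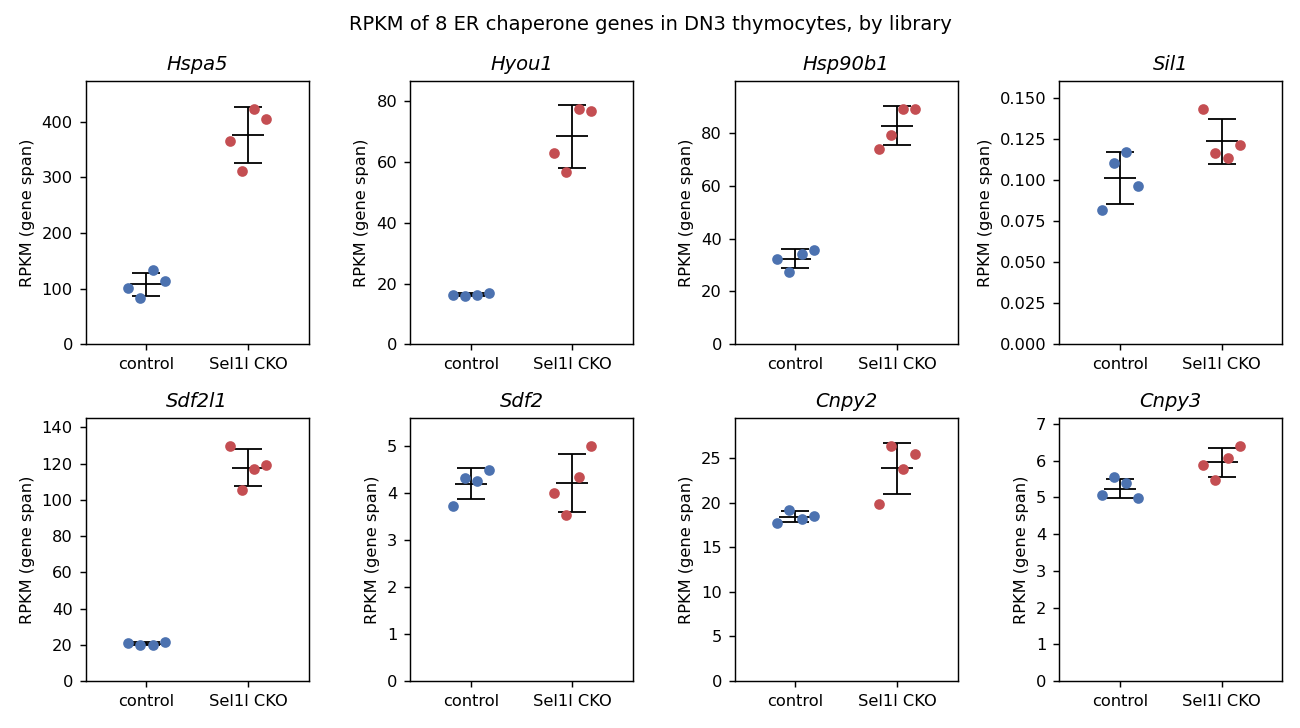
RPKM (y axis, linear from 0, a separate scale for each gene) of the 8 ER chaperone genes in the 4 control (blue) and 4 Sel1l CKO (red) libraries, with replicates 1 to 4 from left to right in each group and bars for the mean and SD. Hspa5, Hyou1, Hsp90b1 and Sdf2l1 stand apart without overlap, Cnpy2 stands apart by a smaller distance, and Sil1, Sdf2 and Cnpy3 overlap.

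Hsp90b1 was at 32.3, 27.5, 34.3 and 35.8 RPKM in the control libraries and 74.2, 79.4, 89.1 and 89.1 RPKM in the Sel1l CKO libraries. No Sel1l CKO library came down to the control range, in which replicate 2 was the lowest. The mean rose from 32.5 ± 3.61 to 83.0 ± 7.42 RPKM (SD, n = 4), a log2 change of 1.35 (SE 0.10, limma adjusted p = 5.07e-05), with 1.36 among replicates 1 and 2 and 1.34 among replicates 3 and 4. Hsp90b1 (ENSMUSG00000020048.13, chromosome 10, 86690209 to 86705509, minus strand) shares 4598 bases with the pseudogene 1810014B01Rik on the opposite strand and 977 bases with the transcript Gm15344 on its own strand, neither of which is in the table, and whether the counting used strand is not given in the sources used here. The log2 ratio of Hspa5 to Hsp90b1 within a library went from 1.71 ± 0.163 to 2.17 ± 0.144 (SD, n = 4), a difference of 0.46 (SE 0.11, exact permutation p = 0.0286, adjusted p = 0.0357 over 10 pairs). Control replicate 3 (1.950) and Sel1l CKO replicate 2 (1.969) nearly met, and leaving out any 1 library other than control replicate 3 raised the exact permutation p to 0.0571 (difference 0.42 to 0.53). The ratio of Hspa5 to Hyou1 overlapped between genotypes (difference -0.23, SE 0.14, exact permutation p = 0.143, adjusted p = 0.143). The groups no longer overlapped without control replicate 2 (-0.33, exact permutation p = 0.0286), and the difference was -0.12 without control replicate 3.

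The paralogs Sdf2l1 and Sdf2 parted between the genotypes. Sdf2l1 was at 21.1, 19.97, 19.6 and 21.6 RPKM in the control libraries and at 129.8, 105, 117 and 119 RPKM in the Sel1l CKO libraries. All 4 control libraries lay within a narrow band far below the Sel1l CKO libraries. Sdf2l1 (ENSMUSG00000022769.9, chromosome 16, 17130138 to 17132383, minus strand) rose from 20.6 ± 0.932 to 118 ± 10.1 RPKM (SD, n = 4), a log2 change of 2.51 (SE 0.07, 95% interval 2.34 to 2.68, limma adjusted p = 4.24e-07). It ranked 1 of 6512 genes by p and 12 by log2 fold change, and the change was 2.502 among replicates 1 and 2 and 2.52 among replicates 3 and 4.

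Sdf2 was at 3.72, 4.31, 4.27 and 4.49 RPKM in the control libraries and 3.99, 3.53, 4.34 and 5.003 RPKM in the Sel1l CKO libraries. The groups overlapped over nearly their whole range, with Sel1l CKO replicate 2 the lowest and replicate 4 the highest of the 8 libraries. Its mean was 4.20 ± 0.333 RPKM for control and 4.22 ± 0.621 for Sel1l CKO (SD, n = 4). For Sdf2 (ENSMUSG00000002064.10, chromosome 11, 78245746 to 78255496, plus strand) the log2 fold change was -0.00 with a 95% interval from -0.25 to 0.24 (limma adjusted p = 0.994), an interval that excludes a change of the size seen for Sdf2l1. Sdf2 shares 242 bases with Supt6 on the opposite strand. The log2 ratio of Sdf2l1 to Sdf2 rose from 2.27 ± 0.141 to 4.78 ± 0.188 (SD, n = 4), a difference of 2.51 (SE 0.12, exact permutation p = 0.0286, adjusted p = 0.0357 over 10 pairs).

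Neither canopy gene passed the test. Cnpy2 was at 17.8, 19.2, 18.2 and 18.5 RPKM in the control libraries and 19.8, 26.4, 23.8 and 25.4 RPKM in the Sel1l CKO libraries. The Sel1l CKO libraries all exceeded the control libraries, but replicate 1 only just. The mean was 18.4 ± 0.606 RPKM for control and 23.9 ± 2.89 for Sel1l CKO (SD, n = 4). The log2 difference for Cnpy2 (ENSMUSG00000025381.3, chromosome 10, 128322459 to 128327553, plus strand) was 0.36 (SE 0.09, 95% interval 0.16 to 0.57, limma adjusted p = 0.0539), and over the alternative settings the adjusted p ran from 0.00319 to 0.104. Without Sel1l CKO replicate 1 it was 0.45 (limma adjusted p = 0.00575).

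Cnpy3 was at 5.06, 5.55, 5.39 and 4.97 RPKM in the control libraries and 5.87, 5.48, 6.07 and 6.40 RPKM in the Sel1l CKO libraries. The groups overlapped only through control replicate 2 and Sel1l CKO replicate 2. For Cnpy3 (ENSMUSG00000023973.13, chromosome 17, 46735705 to 46752214, minus strand) the mean was 5.24 ± 0.270 RPKM for control and 5.96 ± 0.386 for Sel1l CKO (SD, n = 4). The log2 difference was 0.18 (SE 0.07, 95% interval 0.02 to 0.34, limma adjusted p = 0.187). The gene lies within the span of the noncoding RNA Gm26904 on the opposite strand. The ratio of Cnpy2 to Cnpy3 overlapped between genotypes (difference 0.18, SE 0.11, exact permutation p = 0.114, adjusted p = 0.127 over 10 pairs). The difference was 0.26 without Sel1l CKO replicate 1 (exact permutation p = 0.0286) and 0.094 without Sel1l CKO replicate 2.

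Across the group, 4 of the 7 members tested were higher at an adjusted p under 0.05, all 4 by more than 0.59 on the log2 scale, and 0 were lower. At an unadjusted p under 0.05, 6 members were higher and 0 lower, against 11.3% and 9.54% of all genes tested. At the adjusted threshold, 2.47% of all genes were called higher by more than 0.59, and 1.01% were called lower. The median log2 fold change was 1.35 over the 7 members and 0.01 over all genes tested. In limma voom on recovered reads the same 4 of 8 members were called higher, against 2.88% of 11781 genes, and 0 lower, against 1.34%. All Sel1l CKO libraries lay above all control libraries for 5 of the 8 members (the 4 called and Cnpy2), against 9.15% of all tested genes, and 0 members lay entirely below, against 5.59%. The 4 called members kept an adjusted p under 0.05 in all 11 alternative settings and in all 8 fits that left out 1 library.

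RPKM on the gene span cannot rank genes against each other, since introns count as length. Levels were therefore recomputed from the recovered reads as RPKM on the length of the annotated exons. That length joins the exons of all annotated transcripts of a gene, so the order of genes also rests on the annotation. In control, Hspa5 (142 ± 27.6) and Hsp90b1 (123 ± 13.7) led with overlapping ranges (SD, n = 4). Cnpy2 followed at 50.1 ± 1.65, Sdf2l1 at 41.7 ± 1.89 and Cnpy3 at 32.5 ± 1.68, and neighbours in this order did not overlap. Hyou1 (29.2 ± 0.750) and Sdf2 (27.0 ± 2.14) overlapped, and Sil1 was lowest at 6.85 ± 1.06. In Sel1l CKO the order became Hspa5 (496 ± 65.3), Hsp90b1 (315 ± 28.1), Sdf2l1 (239 ± 20.5), Hyou1 (122 ± 18.4), Cnpy2 (64.8 ± 7.86), Cnpy3 (37.0 ± 2.40), Sdf2 (27.1 ± 3.99) and Sil1 (8.36 ± 0.913), with no overlap between neighbours. Sdf2l1 and Hyou1 had thus passed Cnpy2, and Hyou1 had also passed Cnpy3.

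**Figure D2:**
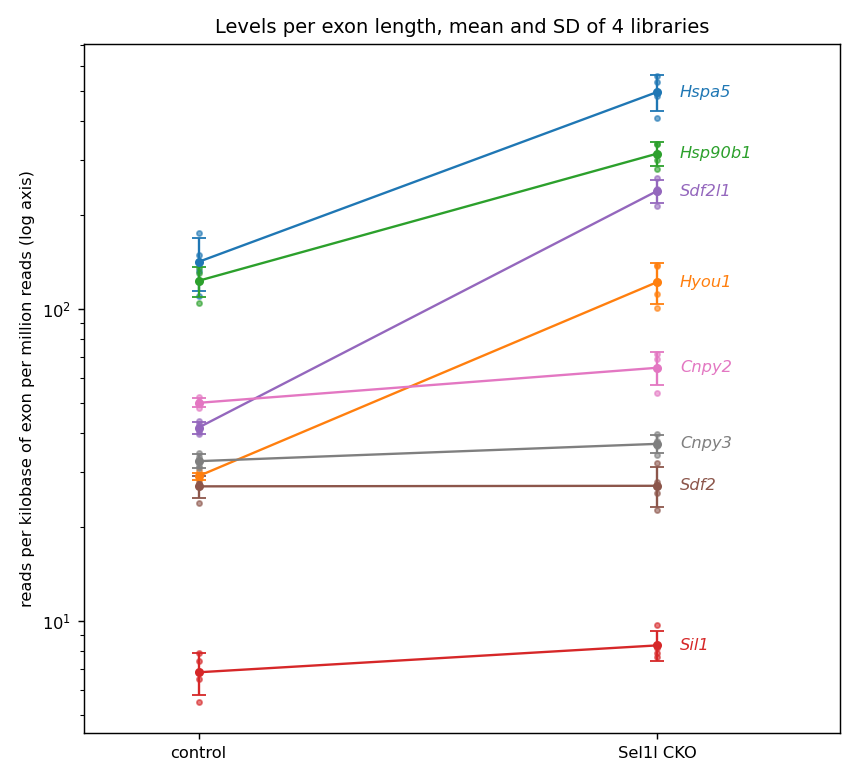
Level of each gene per exon length (RPKM on exon length, log axis) in control and Sel1l CKO, with small points for libraries, large points for the mean of 4 and bars for the SD. Sdf2l1 climbs from 41.7 to 239 and Hyou1 from 29.2 to 122, both crossing the line of Cnpy2, which goes from 50.1 to 64.8, while Sdf2 stays at 27.0 and 27.1.

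The 8 genes together took 1591 ± 167 RPM, reads scaled to the size of the library, in control and 4795 ± 517 RPM in Sel1l CKO (SD, n = 4), a 3.01-fold difference. Hspa5 accounted for 37.4% ± 3.52 of these reads in control and 43.7% ± 1.63 in Sel1l CKO. The sum is weighted toward long and abundant transcripts and is given as a description.

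**Figure D3:**
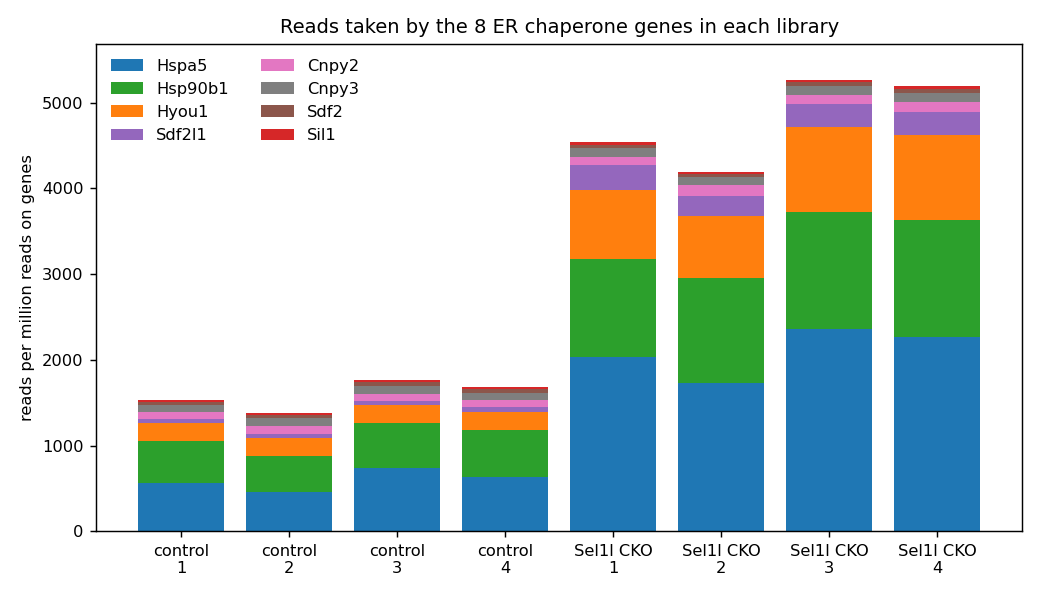
RPM on genes (y axis, linear from 0) taken by the 8 ER chaperone genes in each library, stacked by gene. All Sel1l CKO bars stand above all control bars, and the Hspa5, Hsp90b1, Hyou1 and Sdf2l1 segments make up most of the added height.

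BiP, GRP94 and HYOU1 each have relatives outside the ER, and ratios to these within a library do not depend on how libraries are scaled. The log2 ratio of Hspa5 to Hspa8, the constitutive cytosolic Hsp70, rose by 2.11 (SE 0.16), and that to Hspa9, the mitochondrial Hsp70, rose by 1.598 (SE 0.24). Hsp90b1 rose by 1.59 (SE 0.14) relative to Hsp90ab1, the constitutive cytosolic Hsp90, and by 1.37 (SE 0.10) relative to Trap1 of mitochondria. Hyou1 rose by 2.13 (SE 0.21) relative to Hspa4, a cytosolic exchange factor of the same family. In each of these 5 pairs the Sel1l CKO libraries all exceeded the control libraries (exact permutation p = 0.0286, adjusted p = 0.0357 over 10 pairs). The pairs use members already called higher, so they are not separate evidence for those calls. Each ratio also carries the change of its second gene. That was -0.29 for Hspa8, -0.23 for Hsp90ab1, -0.09 for Hspa4, -0.01 for Trap1 and 0.22 for Hspa9, none of them called.

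**Figure D4:**
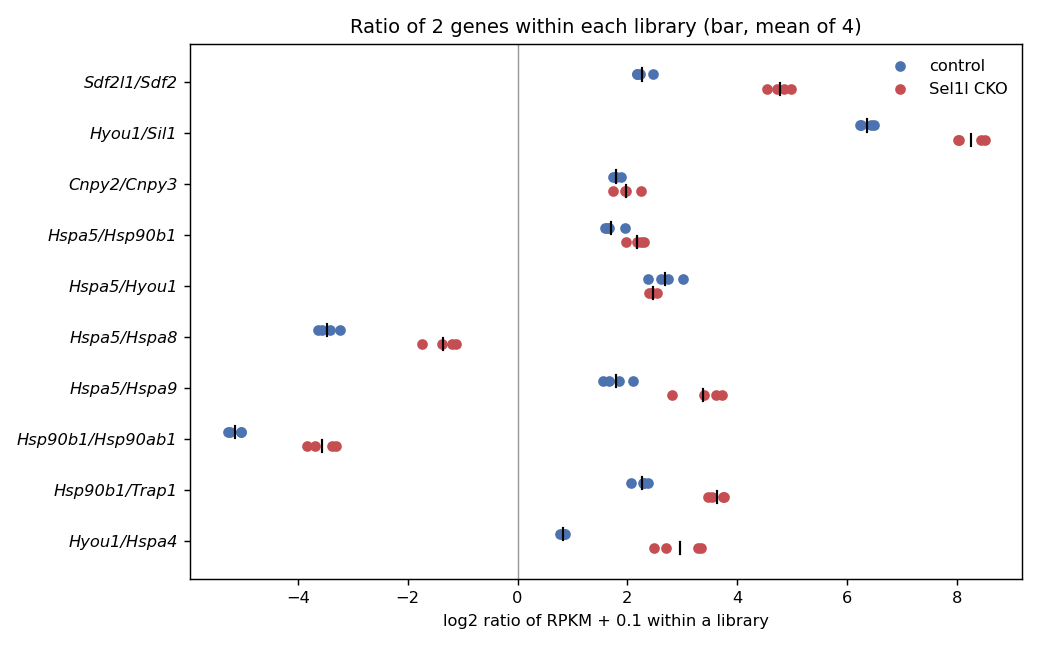
Log2 ratio of RPKM + 0.1 of each pair of genes within a library (x axis) for control (blue) and Sel1l CKO (red), with a bar at the mean of 4. The groups separate for 8 pairs, by 0.46 for Hspa5/Hsp90b1 up to 2.51 for Sdf2l1/Sdf2, and overlap for Cnpy2/Cnpy3 and Hspa5/Hyou1.

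Among 13 tested cytosolic and mitochondrial counterparts, 1 was called higher and 4 lower, against 4.27% and 1.01% of all genes tested. Their median log2 fold change was -0.09. This list and the other gene lists below were chosen with earlier results of these data known. Grpel1, the exchange factor of mitochondrial Hsp70, was higher by 0.27 (limma adjusted p = 0.0367). Hsph1 fell by 0.98 (limma adjusted p = 0.00786) and the inducible Hsp90aa1 by 0.70 (limma adjusted p = 0.00965). The heat-inducible Hsp70 genes Hspa1a (-5.23) and Hspa1b (-4.96) were lower, and being near-identical copies they may share reads. Hspa1a was at 50.5, 16.1, 460 and 1059 RPKM in the control libraries and 7.18, 3.75, 2.14 and 3.15 RPKM in the Sel1l CKO libraries, so control libraries differed among themselves by more than those of any of the 8 ER chaperone genes. The calls of Hspa1a and Hspa1b were lost in voom (adjusted p = 0.113 and 0.0728) and in 6 of 8 fits without 1 library, all but those without control replicate 1 or 2, and that of Grpel1 was lost in all 8. Hspa8, Hspa9, Hsp90ab1, Hspa4, Trap1, Hspbp1, Bag1 and Hspa2 did not pass the test (-0.29 to 0.22), Hspa4l was below the filter on RPKM and fell by 0.83 in voom (adjusted p = 0.00289), and Hspa14 was not in the table.

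All 6 other subunits of the ER multichaperone complex, which holds BiP and GRP94 with folding enzymes, were called higher, against 4.27% of all genes tested. Their median log2 fold change was 1.0498. The disulfide isomerases Pdia6 and Pdia4 rose by 1.77 and 1.66 and P4hb by 1.001. The J-domain protein Dnajb11 rose by 1.10, the prolyl isomerase Ppib by 0.87 and Uggt1, which tags misfolded glycoproteins for another folding round, by 0.46 (limma adjusted p = 0.0131).

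Of 8 tested genes for J-domain partners, modifiers and binders of BiP, 5 were called higher, against 4.27% of all genes tested. The median log2 fold change of the 8 was 1.13. Creld2 (2.02), an ER-resident protein induced by ER stress, and Manf (1.83), which binds BiP with its nucleotide, rose furthest on this list. The J-domain protein Dnajc3 rose by 1.202 and Ficd, the enzyme that AMPylates and inactivates BiP, by 1.17. Dnajb11 was counted above. Dnajb9, which brings BiP to IRE1, was at 3.97, 3.65, 13.1 and 6.91 RPKM in the control libraries and 5.31, 5.74, 13.0 and 12.2 RPKM in the Sel1l CKO libraries (log2 difference 0.46, SE 0.44, limma adjusted p = 0.575). Leaving out 1 library moved that difference from 0.23 (without control replicate 2) to 0.83 (without control replicate 3), and it did not pass in any of these 8 fits. Its values were higher in replicates 3 and 4 than in 1 and 2 of either genotype. The reductase Dnajc10 (0.13) and the translocon J-domain protein Sec63 (0.31) did not pass the test, and Dnajc1, Dnajc25 and Cdnf were below the filter.

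Of the sensors that BiP holds and the factors that act on its promoter, 3 of 4 tested were called higher. The share over all genes tested was 4.27%, and the median log2 fold change of the 4 was 0.63. Atf4, the transcription factor translated downstream of PERK, rose by 0.90 (limma adjusted p = 5.83e-04), Xbp1, the substrate of IRE1, by 0.69 (limma adjusted p = 0.0164) and Eif2ak3, which encodes PERK, by 0.58 (limma adjusted p = 0.0238). Atf6b was at 15.1 to 16.2 RPKM in control against 16.2 to 22.02 in Sel1l CKO (log2 difference 0.25, limma adjusted p = 0.172). Ern1, which encodes IRE1, and Atf6 were below the filter on the span-based RPKM. In voom on recovered reads Atf6 rose by 0.91 (adjusted p = 0.00612), whereas Ern1 differed by -0.12 (adjusted p = 0.499). The call of Eif2ak3 was lost in 4 of 8 fits without 1 library (those without control replicate 2 or 4 or Sel1l CKO replicate 3 or 4, adjusted p up to 0.0754), and that of Xbp1 in the fit without control replicate 1 (0.0514).

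Surface receptors that need GRP94 for folding gave 0 calls in either direction among the 2 tested, which were Itga4 (log2 difference -0.49, limma adjusted p = 0.105) and Itgal (-0.05, limma adjusted p = 0.737). Of all genes tested, 4.27% were called higher and 1.01% lower, so 2 genes are too few for a reading. At an unadjusted p under 0.05 there was 1 lower, Itga4, and 0 higher, against 9.54% and 11.3% of all genes tested. The other 11 on the list (Itga6, Itgae, Itgav, Itgb2, Itgb7, Lrp6, Tlr1, Tlr2, Tlr4, Tlr9 and Lrrc32) were below the filter. In voom, 10 of the 13 could be tested and 1 was called lower, against 1.34% of all genes in that fit. This was the integrin gene Itgae (-1.95, voom adjusted p = 0.0194). It was at 0.139, 0.279, 0.232 and 0.250 RPKM in the control libraries and 0.0418, 0.0300, 0.107 and 0.101 RPKM in the Sel1l CKO libraries. Toll-like receptor genes were low throughout, with Tlr2 highest at 0.369 to 0.979 RPKM.

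Of the family relatives, Hspa13, a microsomal Hsp70, rose by 0.98 (limma adjusted p = 0.00356). Cnpy4 fell by 0.31 (limma adjusted p = 0.0499), a call lost in 7 of 8 fits without 1 library, all but the one without Sel1l CKO replicate 4. Pomt1, an O-mannosyltransferase that shares the MIR domain with SDF2, differed by -0.04 (limma adjusted p = 0.854). Pomt2 was below the filter and Cnpy1 was not in the table.

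**Figure D5:**
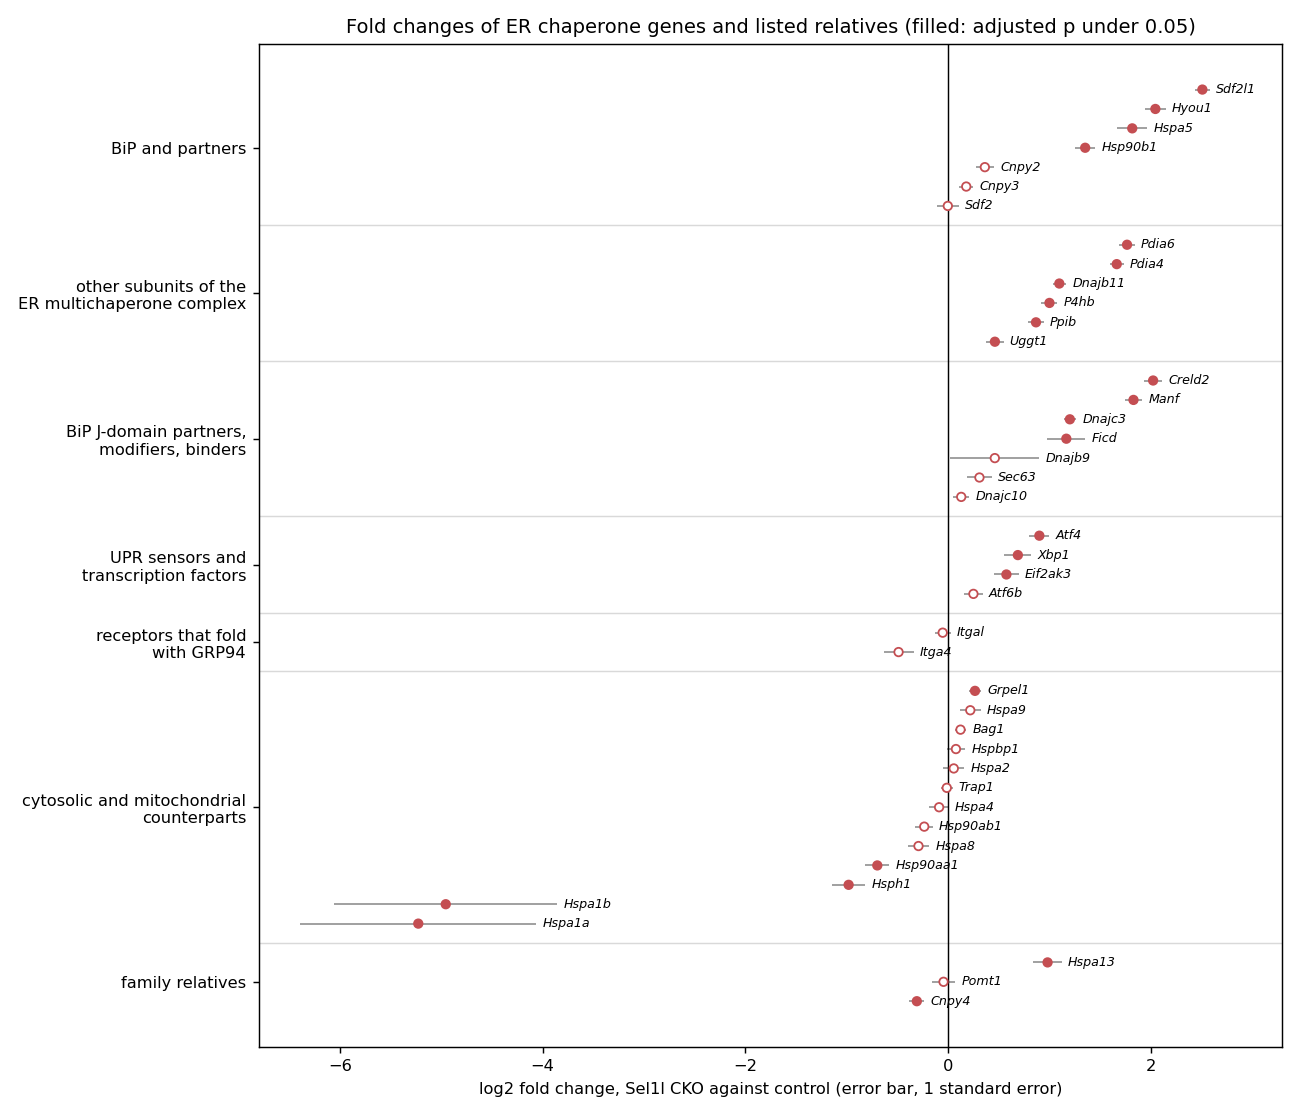
Log2 fold change of Sel1l CKO against control (x axis, error bars 1 standard error) for the tested members and the genes of each list, filled where the limma adjusted p was under 0.05. The members run from Sdf2 at -0.00 to Sdf2l1 at 2.51, the other subunits of the ER multichaperone complex from 0.46 to 1.77, and the cytosolic and mitochondrial counterparts from 0.27 down to Hspa1a at -5.23.

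Genes outside the members with profiles nearest to those of the called members were taken by the root mean square difference of log2 values. It was computed over the 8 libraries, each gene relative to its own control mean. Between the called members themselves it ran from 0.232 (Hspa5 and Hyou1) to 0.832 (Hsp90b1 and Sdf2l1), with 0.354 for Hyou1 and Sdf2l1. Nearest to Hspa5 were Manf (0.144), Pdia6 (0.177), Creld2 (0.228), Herpud1 (0.228), which encodes a component of the HRD1 complex, and Pdia4 (0.232), where the median over all tested genes was 1.304. For Hyou1 they were Creld2 (0.0847), Herpud1 (0.191) and Manf (0.195), with a median of 1.45. For Sdf2l1 they were Creld2 (0.350), Herpud1 (0.389) and Eif4ebp1 (0.498), with a median of 1.77. For Hsp90b1 they were Txndc11 (0.0974), Slc35b1 (0.106), which carries nucleotides across the ER membrane, and Hdlbp (0.130), with a median of 0.969. These distances come from the same libraries as the comparison of genotypes and are a description.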

How the data were processed

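DN3 thymocytes were sorted into TRIzol, and their RNA was made into stranded mRNA libraries and sequenced paired-end, and the authors aligned reads to GRCm38 with STAR 2.5.2b, counted protein-coding genes with HTSeq 2.7 and tested genotype with DESeq2. The deposited unit is RPKM, 1 column per library, and the authors' counts were not used here. On the values, RPKM had been scaled by gene span with introns (GENCODE M21): with it, 75.8% of 15449 genes came out as whole reads in all libraries (tolerance 0.02), against 3.02% with exon length. Lengths were solved for another 3685 genes, which gave whole reads for 97.1% of genes with a value.

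The software was R 4.3.3 (limma 3.58.1) and Python 3.11.15. Genes averaging 1 RPKM or more were tested on log2(RPKM + 0.1) with limma's mean-variance trend, genotype the only term, and Benjamini-Hochberg adjustment over 6512 genes. The threshold was an adjusted p under 0.05, and a log2 change beyond 0.59 is counted separately. Fold changes on this scale understate changes of low genes. limma voom was run on recovered reads where a gene averaged 10 or more. Pairs of genes and Sil1 were tested by exact two-sided permutation. Both fits were first run on simulated data in which 200 genes changed by 1.5 on the log2 scale. Each fit recovered all 200, and 13 unchanged genes were called in limma and 11 in voom. The simulated spread between libraries was set in advance and not taken from these libraries, so it does not measure error rates in these data. Genes named are the members, Sel1l and every gene of the lists. With the members left out, the 5 profiles nearest to Hspa5 and 3 nearest to each of Hsp90b1, Hyou1 and Sdf2l1 are also named. Members and lists were chosen with earlier results of these data known. Promoters came from RefSeq. Alternatives and fits leaving out 1 library are given in the closing section.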

Additional observations from a re-analysis of the deposited data

How the results depend on the processing

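The calls of Hspa5, Hyou1, Hsp90b1 and Sdf2l1 kept their direction and an adjusted p under 0.05 under 11 alternatives (pseudocounts of 0.01 and 1, no filter, a mean RPKM of at least 5, median-of-ratios scaling, quantile normalization, no trend, array weights, the replicate block, a term for replicates 1 and 2 against 3 and 4, and voom), with log2 fold changes of 1.77 to 1.96, 1.98 to 2.18, 1.32 to 1.43 and 2.45 to 2.52. Cnpy2 passed the threshold with a mean RPKM of at least 5 (0.36, adjusted p = 0.0397), median-of-ratios scaling (0.38, adjusted p = 0.0444), array weights (0.39, adjusted p = 0.00319) and the replicate 1 and 2 against 3 and 4 term (0.36, adjusted p = 0.0432), and without Sel1l CKO replicate 1. Leaving out 1 library gave 0.31 to 0.45. Cnpy3 passed with array weights (0.24, limma adjusted p = 0.0334), so members called ran from 4 to 6. Sdf2 changed sign with median-of-ratios scaling (0.0125) and array weights (0.0876), and ran from -0.0860 to 0.0778 without 1 library. Sil1 ran from 0.10 to 0.19 without 1 library, passing without control replicate 3 (0.19), and from 0.029 with a pseudocount of 1 to 0.29 in voom. Without 1 library, the ratio differences ran from 0.42 to 0.54 for Hspa5/Hsp90b1 (exact permutation p under 0.05 in 1 of 8 fits), from -0.33 to -0.12 for Hspa5/Hyou1 (1 of 8) and from 0.094 to 0.26 for Cnpy2/Cnpy3 (1 of 8), while the other 7 pairs passed in all 8. Trap1 changed sign with median-of-ratios scaling (0.00248) and ran from -0.0273 to 0.0225 without 1 library, and Pomt1 changed sign with array weights (0.0532) and ran from -0.133 to 0.0371 without 1 library. The causes were not tested.

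Over all genes, 278 were called higher and 66 lower. A mean RPKM of at least 5 gave 182 and 36 (fewer genes tested), array weights 458 and 182, quantile normalization 262 and 102, the replicate 1 and 2 against 3 and 4 term 343 and 182, and voom 339 and 158. Leaving out 1 library gave 204 to 254 higher and 31 to 75 lower, the lower count falling by more than 1.5 times without any 1 of the control libraries or Sel1l CKO replicate 1 (31 to 40). The median of all genes moved by less than 0.1 under each scaling. Of 26 listed genes called, Sel1l and the nearest profiles included, 18 were called in every fit, and the settings for these listed genes were added after seeing the data. Calls lost under an alternative were those of Sel1l, Uggt1, Eif2ak3, Xbp1, Hspa1a, Hspa1b, Grpel1 and Cnpy4.

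Same-numbered libraries of the genotypes correlated at 0.162, 0.0973, 0.445 and 0.00514 in their deviations from the group means, not all over 0.1, so the numbers were not taken to pair the samples. With the replicate block, 236 genes were higher and 81 lower, 4 members were higher, Hspa5 had an adjusted p of 5.76e-05 and Cnpy2 of 0.0520, and the calls of Sel1l (0.0601), Uggt1 (0.0505), Grpel1 (0.104) and Cnpy4 (0.116) were lost. The log2 fold changes are the same by construction in this balanced design. Only replicate 3 correlated best with its own number in both directions. Within replicate numbers the permutation test of a gene pair cannot go below 0.125.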

Other observations

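Mzb1, which encodes an ER protein that works with GRP94 and is best known in B and plasma cells, was picked out after its values were seen. It was at 12.5, 8.13, 10.3 and 10.9 RPKM in control and 29.4, 9.96, 21.8 and 19.5 RPKM in Sel1l CKO replicates 1 to 4. Sel1l CKO replicate 2 lay within the control range and the other Sel1l CKO libraries above it (log2 difference 0.85, limma adjusted p = 0.136).

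The log2 ratio of Hspa5 to Hyou1 had an SD of 0.267 over the control libraries (2.38 to 3.02) and 0.0568 over the Sel1l CKO libraries (2.40 to 2.53), with n = 4 in each. The difference between these spreads was not tested. In 38 groups of 4 values for the members, Sel1l and the gene pairs, 0 held a library that stood apart by Dixon's criterion.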
